A study of Drosophila melanogaster with 2 samples.

Results

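The genes that build the machinery for licensing replication origins were followed: Orc1, Orc2, Orc3, Orc4, Orc5 and Orc6, Cdc6, dup and geminin, 9 of the 13945 protein-coding genes on the main chromosome arms of Drosophila melanogaster. They were chosen by name and role. All regions with a summit inside the gene or within 1000 bp of it (Ensembl annotation BDGP6.54) were taken from each file. The chromatin came from whole embryos collected between 0 and 24 hours, of the fly strain E2f1-GFP. Its flies express a fusion of eGFP with E2f1, the activating E2F protein of the fly, and an antibody against GFP was used for the precipitation per the description, while the antibody label names E2f1. There was 1 group of 2 biological replicates, from separate biosamples of the same strain, and no second genotype, stage or treatment. The labels do not say under which promoter the fusion was expressed or whether untagged E2f1 was present. Whole embryos mix dividing and non-dividing cells of all tissues, and more cells with E2f1 at a gene cannot be told apart from more E2f1 per cell.

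Origins of replication are licensed when the origin recognition complex, made of the subunits Orc1 to Orc6, sits on DNA and, with Cdc6 and the fly Cdt1 protein that dup (double parked) encodes, loads the Mcm2-7 helicase. Geminin binds the Cdt1 protein and blocks further loading once S phase has begun, so an origin fires only once per cycle. E2F with its partner Dp activates genes needed for DNA synthesis, and E2F-dependent transcription of Orc1 is known in flies. An E2F site was searched for as the word TTCCCGC, as the word TTCGCGC, as the word TTGCCGC or as the word TTGGCGC. The DNA replication-related element (DRE), which is bound by the factor DREF and is frequent at promoters of fly replication genes, was searched for as TATCGATA. Both strands were read, and no word of one motif can contain a word of the other.

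The promoter sequences of Orc2, Orc5 and Cdc6 are shown because they differ in both the words they hold and their E2f1 signal. They are the bases just before the transcription start site (TSS), 5′ to 3′ along the gene, from the RefSeq genome in the dm6 build. They stop at the neighbouring gene (95 bp at Orc5), behind the upstream DRE (210 bp at Orc2) or at 150 bp (Cdc6). Capitals mark matches to the DRE or E2F words.
Orc5, chr2L:13829742-13829836, plus strand, the whole gap to the neighbouring gene Arpc1: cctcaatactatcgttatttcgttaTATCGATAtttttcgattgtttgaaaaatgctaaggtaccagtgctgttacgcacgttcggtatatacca
Orc5, chr2L:13829839-13829864, plus strand, site just after the TSS: gggaataatTTGGCGCcatttcaatg
Orc2, chr3R:13964675-13964884, plus strand: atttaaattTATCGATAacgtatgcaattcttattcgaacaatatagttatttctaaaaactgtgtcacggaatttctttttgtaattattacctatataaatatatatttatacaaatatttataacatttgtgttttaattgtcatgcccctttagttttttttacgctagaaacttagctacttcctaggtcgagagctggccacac
Orc2, chr3R:13964897-13964922, plus strand, site just after the TSS: ttagtTATCGATAaTTCCCGCcactt
Cdc6, chr3L:8634070-8634219, minus strand, inside an intron of Zasp66: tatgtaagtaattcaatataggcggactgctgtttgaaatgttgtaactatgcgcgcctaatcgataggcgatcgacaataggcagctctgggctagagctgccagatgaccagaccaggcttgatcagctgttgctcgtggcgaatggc
Orc5 held a DRE centred 66 bp before the TSS and an E2F word 14 bp after it. Orc2 held a DRE 198 bp before the TSS, and a second DRE with an E2F word 1 base further on after the TSS. The Cdc6 stretch held neither. As described below, Orc5 and Cdc6 had a region in the reproducible set and Orc2 had none; since the stretches were picked to differ, this says nothing of how words and E2f1 signal go together over the genes. Orc1, Orc4, Orc5 and dup had both a word and a region.

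For each replicate there was a thresholded set of regions and, behind it, a longer ranking of candidates. For both replicates together the authors gave a conservative set, called here the reproducible set, and a larger set, with their own rankings. Their sizes were 3779 regions in replicate 1, 3280 in replicate 2, 4439 in the reproducible set and 5167 in the larger set. Every region of a thresholded set had an irreproducible discovery rate (IDR) of at most 0.01. This is the global IDR, the estimated share of irreproducible regions among those of the list ranked at least as high. The height of a region is a score of the authors' peak caller with no stated rescaling between libraries, and the files used hold no read counts, so the depth is unknown.

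E2f1 was found at the promoters of 6 of the 9 genes in the reproducible set: Orc1, Orc4, Orc5, Cdc6, dup and geminin. The same 6 had a summit within 1000 bp of the gene and within 500 bp of a TSS, against 27.4% and 17.6% of all protein-coding genes under those rules. The larger set added Orc3 and so held 7 of the 9, against 30.1% of protein-coding genes by the gene rule and 19.7% by the TSS rule. In the set of replicate 1 there were also 7, Orc3 among them, against 24.4% and 15.8%. In the set of replicate 2 there were 5, without Orc3 and Cdc6, against 22.4% and 13.8%. Orc2 and Orc6 were in none of the 4 sets. The members and the question were chosen with results of these data known, so these counts are a description and were not tested.

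**Figure D1:**
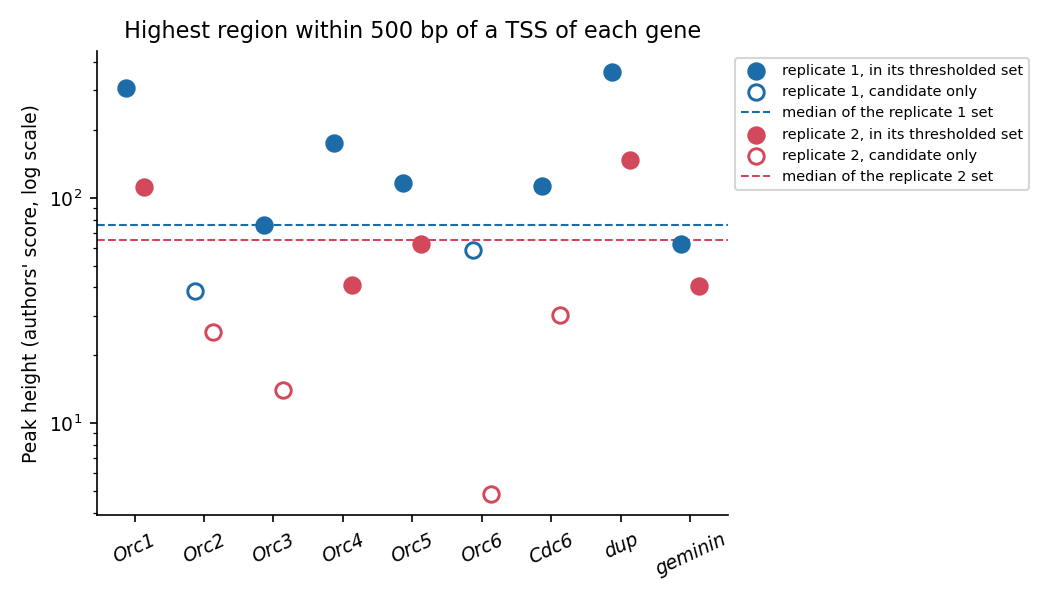
Peak height (authors' score, log scale) of the highest region with its summit within 500 bp of a TSS of each gene, in the list of replicate 1 (blue) and replicate 2 (red). Filled points passed the authors' threshold in that replicate, open points are candidates only, and dashed lines are the medians of each replicate's set, 75.4 and 65.1; every gene stood higher in replicate 1, but at Orc3 and Orc6 the points of the replicates are candidates at different positions.

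Among the loading factors and the subunits of the complex, dup and Orc1 stood highest. The dup region (chromosome 2R, 15380526 to 15380772) had a height of 502 in the reproducible set, rank 183 of 4439. It measured 362 in replicate 1 and 148 in replicate 2. Its summit lay 31 bp before the downstream of the 2 dup TSSs, in sequence annotated as 5′ UTR of the longer transcript. The summits of the replicates lay 26 and 56 bp before that TSS. The one in replicate 2 was 54 bp from a TSS of SRPK, a kinase gene on the opposite strand. That SRPK TSS, at 15380724, lies inside the region, which therefore counts for SRPK as well as for dup.

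A second, low region at dup (chromosome 2R, 15381141 to 15381484, height 63.4) had its summit 325 bp before the upstream dup TSS. The summit lay in an intron of SRPK and was closer, at 136 bp, to another SRPK TSS, downstream of the one named above. This region was in the reproducible and larger sets (IDR 0.00344 and 0.00318). It was in neither replicate's own set, where its candidates had heights of 45.2 and 29.8.

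Orc1, the largest subunit of the complex, had a narrow region of 231 bp (chromosome 2R, 7525612 to 7525842; the median width of the set was 344 bp) with a height of 421, rank 263 of 4439. The heights were 309 in replicate 1 and 112 in replicate 2. The summits lay 8 and 11 bp before the single TSS of the gene in the replicates, so they differed by 3 bp. For Orc1 and dup the IDR was 1e-05, the lowest value the lists give, in all 4 sets.

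Orc4 and Orc5, further subunits of the complex, had regions of intermediate height. Orc4 (chromosome 2R, 24797270 to 24797613) had a height of 211, with 176 in replicate 1 and 40.9 in replicate 2. Its summits were the farthest apart of the 6 genes: 41 bp before the TSS in replicate 1 and 74 bp after it in replicate 2, a gap of 115 bp. Orc5 (chromosome 2L, 13829632 to 13829975) had a height of 176, with 116 and 62.5 in the replicates. The Orc5 summit lay 33 bp before its TSS, in the gap of 96 bp between the 5′ ends of Orc5 and Arpc1, which encodes a subunit of the Arp2/3 actin complex and is transcribed the other way. The region therefore counts for both genes of the pair.

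Cdc6, which acts with the Cdt1 protein in helicase loading, had its summit at the TSS base itself (chromosome 3L, 8633897 to 8634240), inside an intron of Zasp66, which encodes a muscle protein and runs on the other strand. The height was 149 in the reproducible set and 112 in replicate 1, where its IDR was 1.43e-05. In replicate 2 the candidate had a height of 30.0 and an IDR of 0.684, and it was not in that replicate's set. The reproducible set nevertheless held the Cdc6 region, with an IDR of 0.00175.

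The gene of the inhibitor geminin had the lowest promoter region of the 6 (chromosome 2R, 6656256 to 6656599), with a height of 100, just under the median of 113 over the reproducible set. The heights were 62.0 and 40.7 in the replicates, and both passed their own threshold, with IDR values of 0.00236 and 0.00605. The summits lay 30 and 25 bp before the downstream of its 2 TSSs. So dup and geminin, which act against each other, were both in all 4 sets at different heights: 502 and 100 in the reproducible set, 362 and 62.0 in replicate 1 and 148 and 40.7 in replicate 2.

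The other 3 subunit genes had candidates that did not pass in the reproducible set. Orc3 (chromosome 2R, 13202728 to 13206547) shares its gene span with CG34315. Its candidate at the downstream TSS had a height of 78.2 and an IDR of 0.781 in the list behind the reproducible set, and an IDR of 0.00196 in that behind the larger set. In replicate 1 the Orc3 summit lay 4 bp before that TSS with a height of 75.7 (IDR 0.000301), beside a weak second region of height 8.37. In replicate 2 the highest candidate lay 361 bp after it with a height of 14.0 (IDR 0.645). The Orc3 height of 78.2 was above the 63.4 of the second dup region, which did pass.

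For Orc6, the smallest subunit (chromosome 2R, 9845458 to 9846485), the candidate of replicate 1 had a height of 58.5 and an IDR of 0.02, above the limit of 0.01, with its summit 109 bp after the TSS. In replicate 2 the highest candidate near the Orc6 TSS had a height of 4.82 and lay 457 bp before it. The Orc6 candidate had an IDR of 0.785 in the list behind the reproducible set and 0.0143 in that behind the larger set. For Orc2 (chromosome 3R, 13964885 to 13967075) the candidates of the replicates had heights of 38.5 and 25.3, at 160 and 274 bp before the TSS. Their IDR values were 0.0332 and 0.172. The Orc2 candidate had a height of 63.8 and an IDR of 0.225 in the list behind the reproducible set, and 0.778 in that behind the larger set. A candidate within 500 bp of a TSS was thus listed for all 9 genes in both replicates, but the ranked lists hold such a candidate for 65.4% of protein-coding genes in replicate 1 and 56.9% in replicate 2.

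Within the series, Orc1, Orc4, Orc5, dup and geminin shared the pattern of a promoter region in all 4 sets with 1563 protein-coding genes, themselves included. Cdc6, which missed the replicate 2 set alone, had a pattern held by 296, and Orc3 one held by 213. The order of heights was not the same in the replicates: dup and Orc1 led in both, but Orc4 was above Orc5 in replicate 1, at 176 against 116, and below it in replicate 2, at 40.9 against 62.5. With 1 value per gene in each of 2 replicates, neighbours in this order cannot be separated.

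**Figure D2:**
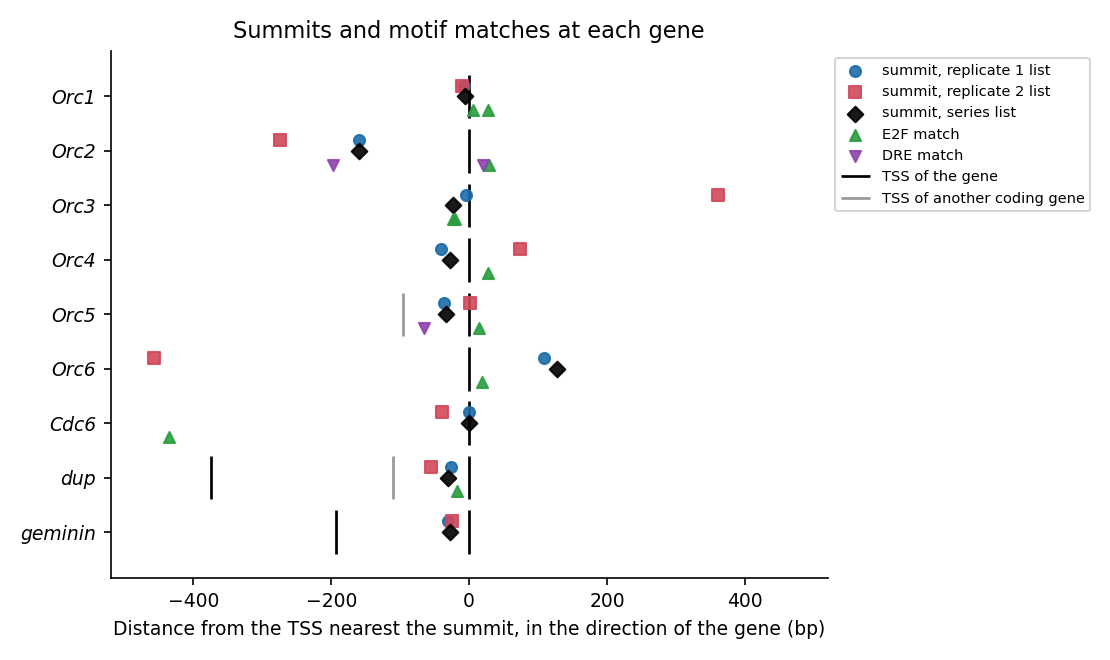
Positions of summits and motif matches around the TSS nearest the summit of each gene, in bp along the gene's direction; black bars are TSSs of the gene and grey bars TSSs of other coding genes within 500 bp. For the highest regions of the 6 reproducible-set genes, series summits (black diamonds) lie between 33 bp before the TSS and the TSS itself. The second, lower dup region, with its summit 325 bp before the upstream dup TSS, is not shown. E2F words (green) lie within 29 bp of the TSS shown at the 6 genes of the complex and at dup. The word at Cdc6 stands at -435 bp.

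All 6 genes of the origin recognition complex, and dup, held an E2F word in the window from 250 bp before to 50 bp after a TSS, which makes 7 of the 9 genes. Of all protein-coding genes 18.2% held one in that window, and 15.9% of the 12812 genes with 1 or 2 TSSs, as the 9 genes have. Cdc6 and geminin held none. A DRE lay in the window of Orc2, Orc3 and Orc5, 3 of the 9, against 10.2% of protein-coding genes. At Orc3 it lay 144 bp before the upstream TSS, which is also the 5′ end of CG34315. The window of the downstream Orc3 TSS, where the E2f1 candidate lay, held none. Neither word was particular to these genes. Of the 26 other licensing and firing genes described below, 15 (57.7%) held an E2F word in that window, including all subunit genes of the Mcm2-7 helicase. A DRE was held by 9 of them (34.6%). A match is a run of letters and not a measured site. Cdc6 and geminin, without an E2F match, still had E2f1 regions, while Orc2 and Orc6 had a match and no region that passed.

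The words were also placed relative to the summits. In Orc1 the words TTGGCGC and TTGCCGC were centred 12 and 33 bp from the summit, 6 and 27 bp after the TSS. In dup TTGGCGC lay 13 bp from the summit and 18 bp before the TSS. In Orc5 the word TTGGCGC shown above lay 47 bp from the summit, with the DRE 34 bp from it on the other side. Within 50 bp of the promoter summit, 3 of the 6 genes in the reproducible set thus held an E2F word, against 4.17% of all 4439 summits, and 1 held a DRE, against 1.71%. Among the 1930 promoter regions of the set the shares were 5.85% and 3.52%. In Orc4 TTGGCGC lay 27 bp after the TSS and 55 bp from the series summit, between the summits of the 2 replicates.

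Orc3, outside the reproducible set, held TTGGCGC on both strands, overlapping, 0 and 3 bp from its candidate summit and 23 and 20 bp before the downstream TSS. The same overlapping pair stood at the upstream Orc3 TSS, 123 and 120 bp before it, toward the FLASH gene 198 bp away on the other strand. No candidate summit of the list behind the reproducible set lay closer to that upstream TSS than 483 bp, where the height was 23.8. In Orc6 the word TTCGCGC lay 18 bp after the TSS and 110 bp from its candidate summit.

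The replicates differed more at these genes than at most regions. Over the 4380 regions of the reproducible set with a candidate in both lists, the height in replicate 1 divided by that in replicate 2 had a median of 1.24 and quartiles of 1.02 and 1.56. The second, lower region of dup had a ratio of 1.51 and is left out of the values that follow. For the highest promoter region of each of the 6 genes the ratios ran from 1.52 to 4.29 with a median of 2.60. They were 4.29 for Orc4, 3.74 for Cdc6, 2.75 for Orc1, 2.45 for dup, 1.86 for Orc5 and 1.52 for geminin. All 6 were above the median of all regions and 4 were above 2, against 9.22% of all regions. The Orc4 and Cdc6 ratios were above those of 99.9% and 99.7% of regions or equal to them. Both rest on weak matches in replicate 2. The Orc4 summits of the replicates lay 115 bp apart, and the Cdc6 candidate, with an IDR of 0.684, was outside the replicate 2 set. Which replicate is nearer to the usual state of these genes cannot be told from 2 libraries.

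**Figure D3:**
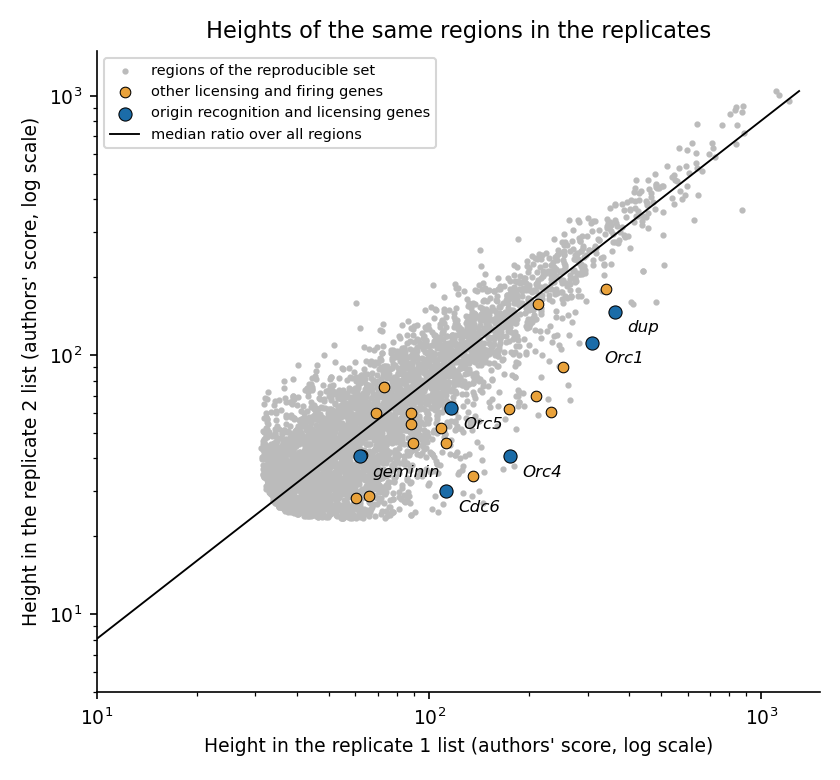
Height in the list of replicate 2 (vertical) against height in the list of replicate 1 (horizontal; authors’ scores, log axes) for the regions of the reproducible set (grey), the other licensing and firing genes (orange) and the 6 origin recognition and licensing genes (blue, named). Each gene is shown by its highest promoter region. The line marks the median ratio of 1.24, and the 6 genes all lie below it, on the side of replicate 1.

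Among the 1107 regions above a height of 188 the median ratio was 1.17. GC content moved with the ratio. GC content over 50 bp to either side of a summit was 38.6% to 53.5% at the highest regions of the 6 genes. It was 29.7% at the second dup region, and its median over the set was 31.7%. Regions with 40% or more had a median ratio of 1.39 and the others 1.20. The 5 of the 6 genes at 40% or more had a median of 2.75, so their ratio was also above that of GC-rich regions. The parts of height and of GC content in the ratio of these genes were not tested.

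E2f1 was at the promoters of a like share of other genes of origin licensing and firing, and their heights leaned to replicate 1 as well. A list of 27 such genes was used, of which 26 were matched in the annotation. In the reproducible set 20 of them (76.9%) had a summit within 1000 bp of the gene, against 27.4% of protein-coding genes. Within 500 bp of a TSS 17 of the 26 (65.4%) had one, against 17.6% of protein-coding genes. The highest promoter regions were those of dpa (527) and Mcm2 (367), subunits of the helicase, Cdk2 (339), the S phase kinase, RecQ4 (297), a helicase of origin firing, and Mcm6 (280), a further subunit. Nearest to Orc1 in height among those with its pattern over the 4 sets were Mcm2, Cdk2 and dpa, at heights of 367, 339 and 527 against 421.

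Of the genes that control licensing, l(2)dtl, the substrate receptor that directs the Cdt1 protein to destruction, had a height of 99.5, and PCNA, the clamp on which that destruction takes place, 170. Cul4, the scaffold of the same ligase, had no promoter region in any of the 4 sets, and pic, its adaptor, had one in the larger set alone. Mcm3, Mcm10 and dap, which encodes a Cdk inhibitor, had the same pattern as Orc3, with a promoter region in the larger set and in replicate 1. In the reproducible set the region of dap had a height of 222 and lay 549 bp from its TSS, just outside the promoter limit.

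The replicate 1 to replicate 2 ratio was taken at the highest promoter region of each of the 17 genes of this list. Its median was 2.07, its range 0.969 to 3.97, and 9 of the 17 were above 2, against 9.22% of all regions. PCNA (3.97) and RecQ4 (3.85) stood near Orc4 and Cdc6, and chif, the Dbf4 subunit of the firing kinase, had the lowest ratio (0.969). Of the 17, 7 held an E2F word within 50 bp of the summit and 2 held a DRE, beside the shares of 5.85% and 3.52% over promoter regions.

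**Figure D4:**
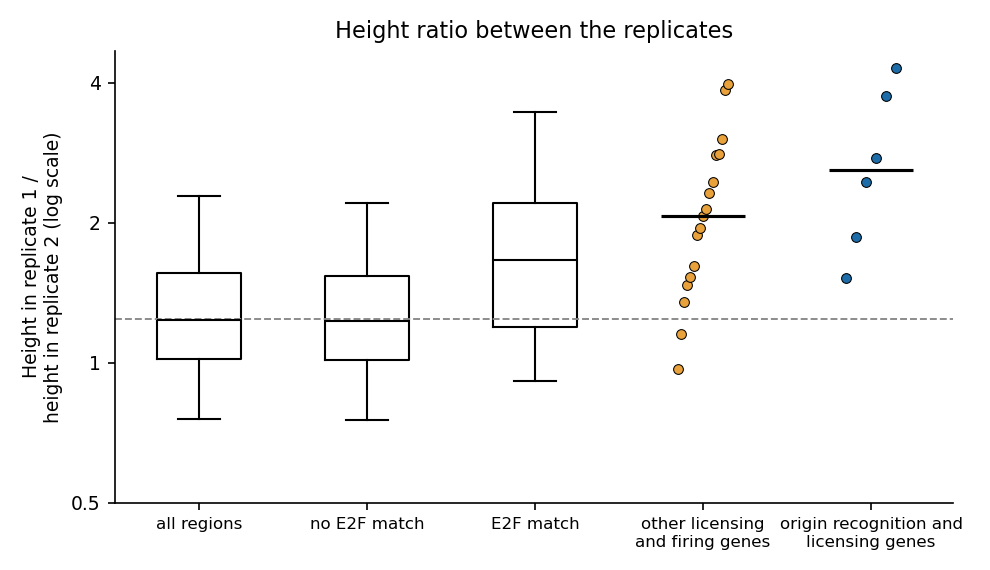
Ratio of heights in replicate 1 and replicate 2 (log scale). For a gene it is that of its highest promoter region. Boxes show the quartiles with whiskers at 5% and 95% for all 4380 regions, for regions without and with an E2F word within 50 bp of the summit (medians 1.23 and 1.66); points are single genes with their median (2.07 for 17 other licensing and firing genes, 2.60 for the 6 origin recognition and licensing genes), and the dashed line is the median of 1.24.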

How the data were processed

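E2f1-eGFP ChIP-seq regions from 2 biological replicates of 0 to 24 hour embryos were used; the fragments were sonicated to 200 to 800 bp, per the labels. Per the file headers, in readme texts deposited beside the files, regions are in dm6 and were made with a control library, which is not analysed here; the aligner and the caller are unnamed in the sources used here. The heights are scores in the authors' files. Further deposited columns hold the -log10 of the global IDR, which stops at 5, and of a significance value resembling q. The list behind the reproducible set was recognised by its inputs: 54.8% of its first inputs had the coordinates of a region in the replicate 1 list, against 0.00193% in the other series list.

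Genes and TSSs were read from Ensembl BDGP6.54 (release 115); bases were read from the RefSeq assembly of dm6. Positions are 1-based. A replicate's height for a region is that of the highest candidate overlapping it by at least 1 bp. Motif windows ran 50 bp each side of the summit. No test was made: there is 1 group, the members are genes chosen by name, and regions are not replicates. The members and lists were chosen with earlier results of these data known. All members were named, with the nearest neighbouring TSS, the 5 highest promoters of the other list and the 3 nearest to Orc1; further genes of that list were chosen after their values were seen. Counting and motif rules were checked on simulated data. Python 3.11.15, numpy 2.4.6, pandas 2.3.3 and matplotlib 3.10.9 were used. The alternatives were other sets, distances, IDR limits and windows.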

Additional observations from a re-analysis of the deposited data

How the results depend on the processing

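The count of genes with a region (6 of 9) was 5 to 7 in each replicate's set alone, 7 in the larger set, 5 at an IDR of 0.001 or lower and 6 at 0.05, at distances of 500 and 2000 bp and by any base of the region. With the summit inside the gene it fell to 3, as the summits of Orc1, Orc4 and Orc5 lie just before the TSS. For the other licensing and firing genes it fell from 20 to 8. Each replicate alone gave 19 to 23 of these genes. Shares of all protein-coding genes were not counted under the other distance, overlap and IDR rules or inside the gene. Those counts thus show only how far the result depends on the rule. The promoter count stayed at 6 with 200 and 1000 bp. E2F words were found at 2 of the 6 summits within 25 bp and at 4 within 100 bp or in the whole region. The 1 DRE gave 0 within 25 bp. Shares of all summits were not counted for these other windows, so these counts too show only the dependence on the rule. Alternatives chosen after seeing the data kept the height ratio: over regions in both replicates' sets its median was 2.45 for 5 of the genes and 1.20 for all 2454 regions. No paired analysis was possible because there is 1 group. The depth of the libraries is unknown, so a gene without a region was not detected at the authors' threshold, which does not show that E2f1 is absent.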

Other observations

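The lean toward replicate 1 was also larger in regions of the reproducible set with an E2F word or a DRE at the summit. This was noticed after the values of the genes were known. Of the 4380 regions of the set with a candidate in both lists, 77.1% had a ratio above 1. Over the reproducible set the 184 regions with an E2F word within 50 bp of the summit and a candidate in both lists had a median height ratio of 1.66 between replicate 1 and replicate 2 (quartiles 1.19 and 2.20), against 1.23 (1.01 and 1.54) for the 4196 without one. For regions with a DRE the median was 1.62 over 75 regions, against 1.23 over the 4305 without one. Regions with a DRE were not split by GC content. Among regions with a GC content of 40% or more the medians were 1.75 with an E2F word (134 regions) and 1.37 without (938 regions), and below 40% they were 1.37 (50 regions) and 1.20 (3258 regions). Of the promoter regions 5.85% held an E2F word, with a median ratio of 1.79 against 1.21 for those without. The median height was 124 for all 185 regions with a word and 112 for the 4254 without.

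Of the 26 other licensing and firing genes, CycE, dap and chm had a region in the reproducible set by the gene rule but no summit within 500 bp of a TSS. The regions inside CycE and dap had heights of 341 and 222 and ratios of 3.94 and 4.82, and each held an E2F word within 50 bp of the summit. The regions of chm, 1 in an intron and 1 intergenic, had heights of 118 and 79.5 and ratios of 0.680 and 0.840, and neither held an E2F word there.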
